A study of Homo sapiens with 4 samples.

Results

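The report covers the H3K9me2 peaks of chromosome 22 in K562 cells, which formed a dense stretch from the centromere-proximal end of the long arm up to the inside of BCR and a sparse remainder beyond it. The members were all listed peaks on chromosome 22 of hg19 that start at or past 16000000, which gave 6655 of the 1000000 listed peaks. They numbered 1797 and 1760 in gCUX1 replicates 1 and 2, and 1574 and 1524 in gHPRT replicates 1 and 2, out of 250000 in each library. No chromosome 22 peak was left out by that limit. The dense stretch, from 17000001 to 23600000, is called the plateau below, and the chromosome from there to the last listed peak end at 51147916 is called the rest. The plateau was chosen from peak coverage and peak width over these same libraries, so its density against the rest is a description and carries no test.

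The gCUX1 libraries came from K562 cells given a CRISPR guide against CUX1, a homeodomain transcription factor, and titled as knock-out. The gHPRT libraries came from K562 cells given a guide against HPRT, a purine salvage enzyme used as the control target. K562 is an established human myeloid leukemia line. There were 2 libraries in each group, and the labels do not say whether they came from separate cultures or clones, so the tests measure a spread that may be technical. The names of the peaks in the lists carry the tag "cux1kd" in both gCUX1 libraries and a "sub" tag in gHPRT replicate 1 alone, which the labels do not explain.

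H3K9me2, dimethylation of lysine 9 on histone H3, is laid down mainly by the methyltransferases G9a and GLP and marks broad stretches of silent or weakly transcribed chromatin. In CUT&RUN an antibody against the mark tethers a nuclease that releases the DNA of marked nucleosomes. The proximal long arm of chromosome 22 holds low-copy repeats and the immunoglobulin lambda genes, and further out lies BCR, a gene for a signalling protein with a GTPase-activating domain. K562 cells carry the Philadelphia fusion, in which BCR is broken inside the gene and joined to the tyrosine kinase gene ABL1 of chromosome 9, and they are known to hold extra copies of the fused segment.

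BCR runs from 23522552 to 23660224 on chromosome 22 (hg19), a length of 137.673 kb, and is read from its low to its high coordinate. In the RefSeq gene order on GRCh38.p14, the nearest protein-coding genes on the centromeric side are RAB36, a small GTPase, and GNAZ, a G-protein alpha subunit. RSPH14 overlaps BCR. On the far side the order runs to IGLL1, which encodes part of the surrogate light chain of B-cell precursors, and DRICH1. By position in that table, 103 protein-coding entries, APOBEC3A_B among them, lie wholly below BCR and 346 wholly above it. Whether each position refers to the assembled chromosome was not checked, so these are not counts of genes on each side. No hg19 gene annotation was used here, so windows other than those over BCR are given by position alone.

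The promoter of BCR is shown because it lies inside the dense stretch and carried listed H3K9me2 peaks in 3 of the 4 libraries. The sequence is that of RefSeq on GRCh38.p14, plus strand of chromosome 22, 250 bases before to 50 after the start, with CG dinucleotides in capitals.
BCR promoter: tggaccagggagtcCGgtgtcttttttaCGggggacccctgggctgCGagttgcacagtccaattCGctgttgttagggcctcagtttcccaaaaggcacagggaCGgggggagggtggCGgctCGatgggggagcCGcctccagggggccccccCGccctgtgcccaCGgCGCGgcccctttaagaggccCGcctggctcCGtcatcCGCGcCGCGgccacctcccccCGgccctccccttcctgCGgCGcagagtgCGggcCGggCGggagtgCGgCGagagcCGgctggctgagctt
It held 27 CG dinucleotides, against a median of 14 over the 35116 RefSeq promoters of the same length, and 28.2% of those held as many or more. Its G and C content was 71.7%, against a median of 58.7%. The letters ATCGAT, a sequence bound by CUX1 and identical on both strands, did not occur in this window and occurred in 0.763% of all promoters.

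On hg19, the 300 bases around the BCR start given above were covered by a peak over 0 bases in gCUX1 replicate 1 and over all 300 in gCUX1 replicate 2. They were covered over all 300 in gHPRT replicate 1 and over 158 in gHPRT replicate 2. The peak over the start ran from 23518519 to 23523081 in gCUX1 replicate 2, with a fold of 1.56 over background as the authors' peak caller gave it. In gHPRT replicate 1 it ran from 23518649 to 23522914, with a fold of 1.55. In gHPRT replicate 2 it ran from 23522444 to 23522914, with a fold of 1.38. Peaks in both gHPRT lists thus ended at the same base downstream of the start. In gCUX1 replicate 1 the nearest listed peaks ended 18.9 kb before and began 26.5 kb after the start.

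The last peak inside BCR ended at almost the same base in 3 of the 4 libraries. It ended at 23632547 in gCUX1 replicate 2, at 23632627 in gHPRT replicate 1 and at 23632547 in gHPRT replicate 2, within 80 bp of each other and between 109.996 and 110.076 kb from the BCR start. That is 79.9%, 80.0% and 79.9% of the way along the gene, in the same order. In gCUX1 replicate 1 the last listed peak in BCR ended earlier, at 23606129, or 60.7% of the way along.

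These terminal peaks were alike in the same 3 libraries. They began at 23626961 in gCUX1 replicate 2, at 23627105 in gHPRT replicate 1 and at 23627151 in gHPRT replicate 2, and were 5587, 5523 and 5397 bp wide in that order. Their folds were 1.78, 1.69 and 1.70, and their −log10 p was 2.28, 1.61 and 2.11. The terminal peak of gCUX1 replicate 1 was 2612 bp wide, with a fold of 1.70 and a −log10 p of 1.65.

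Beyond the terminal peak each list was empty for at least 76.2 kb, which took in the end of BCR. The next listed peak began 165.7 kb on in gCUX1 replicate 1 and 95.1 kb on in gCUX1 replicate 2, against 108.7 kb in gHPRT replicate 1 and 76.2 kb in gHPRT replicate 2. The latest end of a listed BCR peak in any library, 23632627, is called the edge in the next comparisons. By that choice no base of BCR past it lies under a listed peak. Peaks carry serial numbers that rose with position on chromosome 22 in 100% of neighbouring pairs, and numbers missing from a list were read as peaks called but left out of it. No label or header states this meaning. By these numbers, 11 unlisted peaks lay in the empty stretch of gCUX1 replicate 1 and 1 in that of gCUX1 replicate 2, against 7 and 2 in gHPRT replicates 1 and 2. The place of unlisted peaks within the stretch is unknown.

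Inside BCR before the edge, peaks covered 15.4% of bases in gCUX1 replicate 1 and 45.2% in gCUX1 replicate 2, against 57.6% and 42.9% in gHPRT replicates 1 and 2. The gene held 8 and 19 listed peaks in gCUX1 replicates 1 and 2 and 16 and 15 in gHPRT replicates 1 and 2. The groups overlapped in both measures, and gCUX1 replicate 1 was the lowest library in each.

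**Figure D1:**
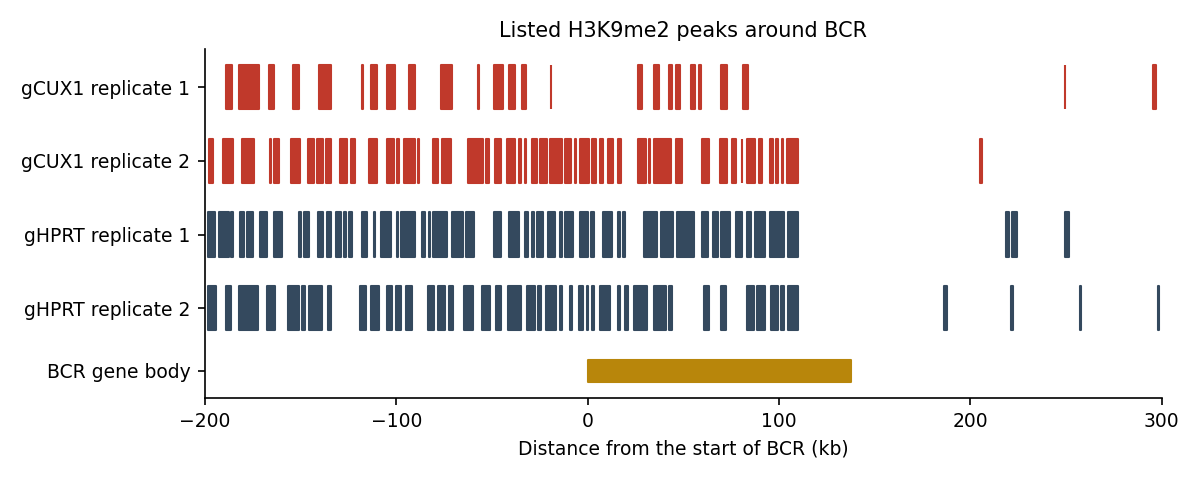
Listed H3K9me2 peaks (bars, to scale) around BCR in each library, with the gene body below and the distance from the gene's start in kb on the x axis. In gCUX1 replicate 2 and both gHPRT libraries the dense run ends at about 110 kb, inside the gene, and in gCUX1 replicate 1 the last listed peak of the gene ends at 83.6 kb.

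The fall in density at 23632627 was abrupt. That point was set as the latest end of a listed BCR peak, so the first 27.6 kb after it are empty by definition. In the 100 kb before 23632627, peaks covered 17.0% in gCUX1 replicate 1 and 45.2% in gCUX1 replicate 2, and 59.7% and 42.2% in gHPRT replicates 1 and 2. In the 100 kb after it they covered 0% and 0.837% in the gCUX1 libraries and 0% and 1.83% in the gHPRT libraries. Over 1 Mb on each side, the values before the edge were 22.5% and 41.9% (gCUX1) and 50.8% and 46.4% (gHPRT), and those after it were 3.31% and 4.98% (gCUX1) and 4.24% and 3.89% (gHPRT). The number of listed peaks in these stretches was 90 and 143 (gCUX1) and 145 and 138 (gHPRT) before the edge, and 32 and 30 (gCUX1) and 24 and 27 (gHPRT) after it.

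A step of 2 levels laid over windows of 100 kb placed the edge at 23600000 in both gCUX1 libraries and in gHPRT replicate 2, which is 77.4 kb past the BCR start. In gHPRT replicate 1 it lay at 23700000, 177.4 kb past the start and beyond the end of the gene. In windows of 10 kb the edge lay at 23610000 in gCUX1 replicate 1 and at 23640000 in the other libraries, which is 87.4 and 117.4 kb past the start. All 4 libraries thus placed it inside BCR at the finer scale.

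Windows just inside and just outside the 2 limits of the plateau had these values. The last 100-kb window inside, from 23500001, was covered to 14.8% and 50.3% in the gCUX1 libraries and to 52.6% and 38.6% in the gHPRT libraries. The first window outside, from 23600001, was covered to 2.61% and 14.5% (gCUX1) and to 23.3% and 17.7% (gHPRT), and it holds the terminal peak. At the centromeric limit, the window from 16900001 was covered to 12.3% and 22.5% (gCUX1) and 17.4% and 22.4% (gHPRT). The window from 17000001 was covered to 29.2% and 51.5% (gCUX1) and 53.1% and 44.6% (gHPRT). The first listed peak of the chromosome began between 16962137 and 16970198 in the 4 libraries.

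The step at BCR was compared with all others in the genome. At each of 26725 boundaries between 100-kb windows, the mean percent covered over 1 Mb after it was taken from that before it, leaving out windows without a peak in any library. The step at 23600000 was 20.1 percentage points in gCUX1 replicate 1, 36.0 in gCUX1 replicate 2, 43.8 in gHPRT replicate 1 and 39.9 in gHPRT replicate 2. It ranked 1 among these boundaries in each of the 4 libraries. The next largest steps by the mean of the libraries, at least 1 Mb apart, were -28.8 points on chromosome 9 at 37.1 Mb, where the sparse side has the low coordinates, and 26.3 points on chromosome 18 at 39.6 Mb. Because the plateau was proposed for its edge, these ranks describe the libraries and were not tested.

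**Figure D2:**
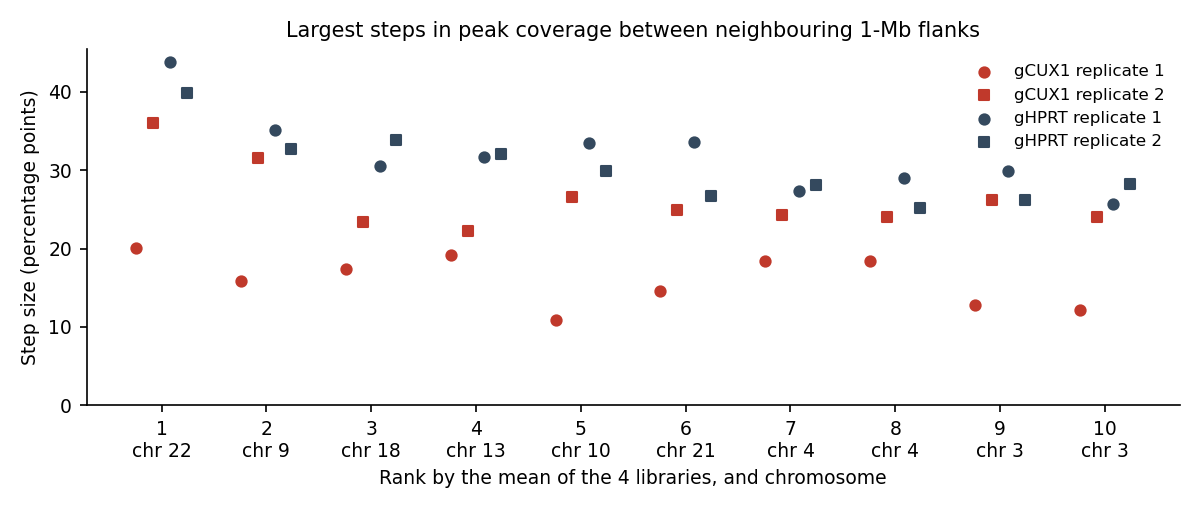
Size of the 10 largest steps in peak coverage in the genome (percentage points between the 1-Mb flanks of a boundary), ranked by the mean of the 4 libraries, with 1 point per library. Sizes are drawn without sign. The step on chromosome 22 at BCR, 20.1 and 36.0 points in gCUX1 and 43.8 and 39.9 points in gHPRT replicates 1 and 2, is the first by rank in each library.

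The density of the plateau itself was less unusual than its edge. Among 28828 stretches of 6.6 Mb taken every 100 kb along the genome, 36.5% were more densely covered than the plateau in gCUX1 replicate 1 and 5.56% in gCUX1 replicate 2, against 15.2% and 17.8% in gHPRT replicates 1 and 2. The rest of the chromosome was at the sparse end. Among 42 chromosome parts ranked from dense to sparse, it was number 41 and 40 in gCUX1 replicates 1 and 2 and number 42 in both gHPRT libraries, while the plateau was number 9 and 1 in gCUX1 replicates 1 and 2 and number 4 and 6 in gHPRT replicates 1 and 2.

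Peaks covered 18.2% of the plateau in gCUX1 replicate 1 and 33.2% in gCUX1 replicate 2, against 36.0% and 33.7% in gHPRT replicates 1 and 2. They covered 5.38% and 5.17% of the rest in the gCUX1 libraries and 6.04% and 4.57% in the gHPRT libraries. The plateau was thus 3.38 and 6.44 times as densely covered as the rest in gCUX1 replicates 1 and 2, and 5.95 and 7.38 times in gHPRT replicates 1 and 2. It made up 19.3% of the span from the first to the last peak of the chromosome, and it held 44.5% and 60.3% of the covered bases in the gCUX1 libraries and 58.5% and 63.5% in the gHPRT libraries.

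**Figure D3:**
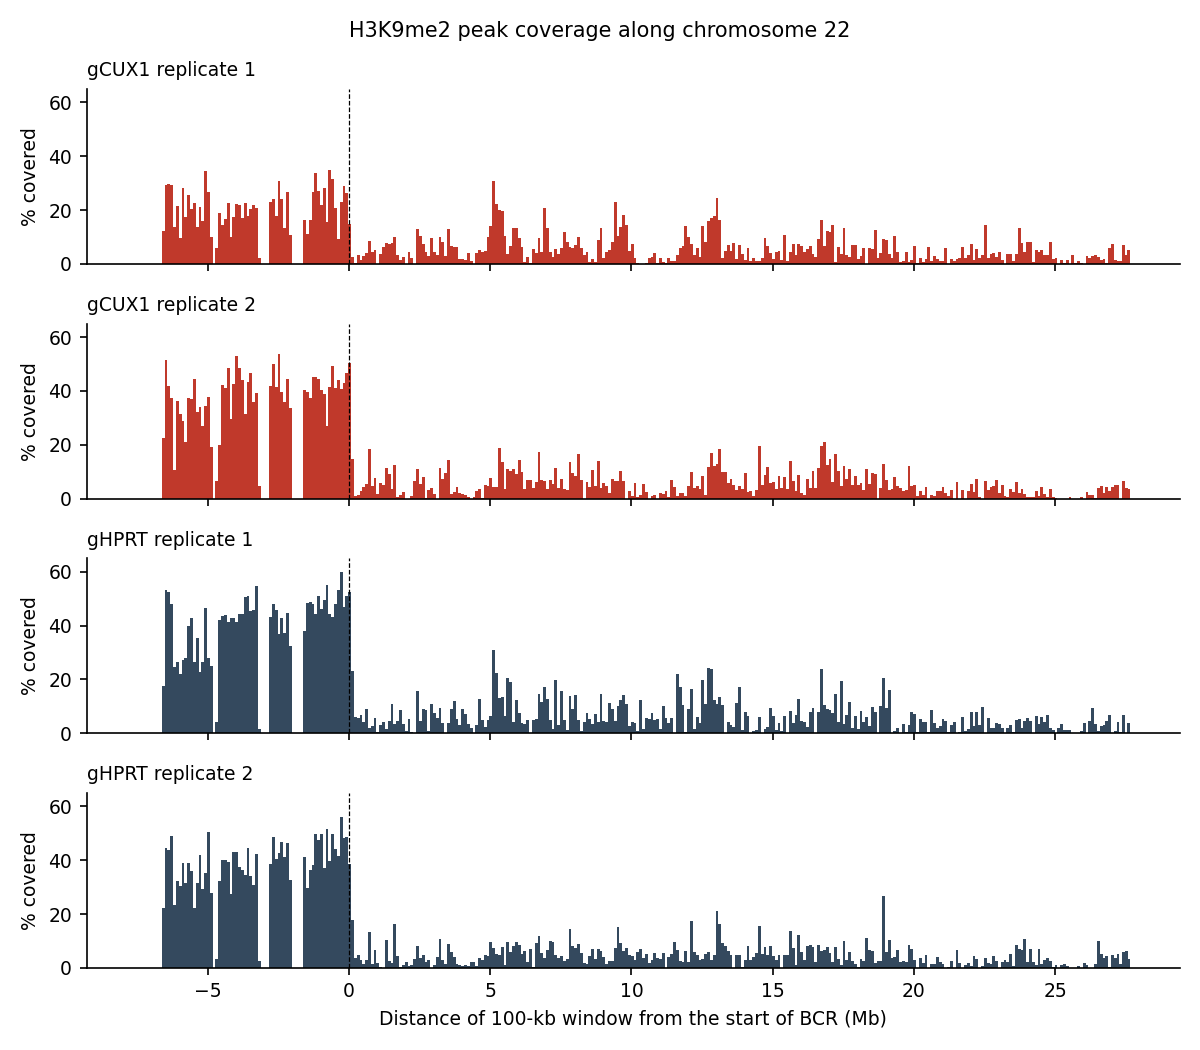
Percent of each 100-kb window of chromosome 22 under H3K9me2 peaks (y axis), against its distance from the start of BCR in Mb (x axis; dashed line, BCR start), 1 panel per library. Coverage is dense on the centromeric side except in 3 peak-free stretches, and sparse beyond BCR in all 4 libraries; the dense side is lowest in gCUX1 replicate 1, at 18.2% overall.

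Within the plateau, 58 of the 66 windows of 100 kb held a peak, the same number in each library. The median window was covered to 20.2% and 38.9% in gCUX1 replicates 1 and 2 and to 43.0% and 38.6% in gHPRT replicates 1 and 2. Windows covered to at least 20% numbered 34 and 53 (gCUX1) and 56 and 56 (gHPRT). Of the 276 windows in the rest, those past this level numbered 5 and 1 (gCUX1) and 9 and 2 (gHPRT). The most densely covered plateau window by the mean of the libraries began at 23200001 and had 22.9% and 40.6% in the gCUX1 libraries and 60.03% and 56.1% in the gHPRT libraries. The next began at 17000001 and 22900001, with means of 44.6% and 43.5%. Windows in the middle of the plateau came close, such as that from 20800001 with a mean of 42.7%. The highest window of gCUX1 replicate 2, with 53.9%, began at 21000001.

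The plateau was broken by 3 stretches of at least 100 kb without a listed peak in any library. They ran from 18652492 to 18890139 (237.6 kb), from 20304890 to 20707961 (403.1 kb) and from 21465872 to 21917091 (451.2 kb), together 16.5% of its length. Almost no unlisted peak numbers fell across them, with 0 in both gCUX1 libraries and 1 in each gHPRT library. Outside these stretches the plateau was covered to 21.8% and 39.8% in gCUX1 replicates 1 and 2, against 43.1% and 40.4% in gHPRT replicates 1 and 2.

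In the rest, coverage was patchy, and 0 of the 276 windows reached 20% in all 4 libraries. By the mean of the libraries the most covered window began at 28600001. It was covered to 30.7% and 4.33% in gCUX1 replicates 1 and 2 and to 30.9% and 7.31% in gHPRT replicates 1 and 2, so it was high in replicate 1 of both groups and low in replicate 2 of both. The window from 42400001 had 9.43% and 12.9% (gCUX1) and 20.4% and 26.7% (gHPRT), and the window from 36500001 had 24.5% and 12.9% (gCUX1) and 10.7% and 21.1% (gHPRT). In windows of 1 Mb the most covered part of the rest ran from 36000001 to 37000000, with 12.8% and 10.7% (gCUX1) and 13.0% and 8.27% (gHPRT). The sparsest full one ran from 49000001 to 50000000, with 1.64% and 0.589% (gCUX1) and 2.34% and 0.484% (gHPRT).

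Plateau peaks were wider and closer together than those of the rest. The median width in the plateau was 1880 and 2610 bp in gCUX1 replicates 1 and 2 and 2655 and 2729 bp in gHPRT replicates 1 and 2. In the rest it was 904 and 1053 bp in the gCUX1 libraries and 1661 and 1176 bp in the gHPRT libraries. The median gap between neighbouring plateau peaks was 5808 and 3573 bp (gCUX1) and 3175 and 3637 bp (gHPRT), and in the rest it was 11196 and 14347 bp (gCUX1) and 18132 and 20740 bp (gHPRT). Peaks of at least 5000 bp made up 7.20% and 14.9% of plateau peaks in the gCUX1 libraries and 17.6% and 14.7% in the gHPRT libraries. In the rest the shares were 0.396% and 1.18% (gCUX1) and 5.42% and 2.53% (gHPRT).

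By the authors' values for each peak, plateau peaks had a lower median fold over background than peaks of the rest in every library. The median fold in the plateau was 1.84 and 1.65 in gCUX1 replicates 1 and 2 and 1.68 and 1.59 in gHPRT replicates 1 and 2. In the rest it was 1.97 and 1.79 (gCUX1) and 1.74 and 1.71 (gHPRT). The median −log10 p was 1.67 and 1.66 (gCUX1) and 1.55 and 1.59 (gHPRT) in the plateau, and 1.68 and 1.54 (gCUX1) and 1.39 and 1.44 (gHPRT) in the rest. It was thus higher in the plateau in all libraries but gCUX1 replicate 1. Most of these peaks were weak. A q of 0.05 was reached by 0 and 17 plateau peaks in the gCUX1 libraries and by 0 and 6 in the gHPRT libraries.

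The strongest plateau peaks were narrow and, like the widest ones, were overlapped by listed peaks in all libraries. In both gCUX1 libraries the strongest began near the same base, at 23062542 in replicate 1 (737 bp, −log10 p of 3.91) and at 23062540 in replicate 2 (1538 bp, 7.73). Relative to the BCR start both began at -460.01 kb. In gHPRT replicate 1 it ran from 21995890 to 21996599 (−log10 p of 3.60) and in gHPRT replicate 2 from 21056844 to 21057919 (8.04, with a fold of 3.14). Each of these 4 peaks was overlapped by a listed peak in the 3 other libraries. The widest plateau peaks, of 10033 and 10881 bp in the gCUX1 libraries and 17896 and 13579 bp in the gHPRT libraries, began at 23340539, 19623174, 22609531 and 22955345 in that order. Their −log10 p lay between 1.29 and 1.64. Each of the widest peaks was also overlapped by a listed peak in the 3 other libraries, so such overlap did not set the strongest peaks apart.

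More of the plateau than of the rest lay under peaks of 3 or all 4 libraries. Of the plateau, 4.92% lay under peaks of all 4 libraries, 12.6% under those of 3 and 38.2% under none, and of the rest 0.0619%, 0.591% and 82.9%. Overlap was measured as a Jaccard index, in which bases under peaks of 2 libraries are divided by bases under peaks of at least 1 of them. It was 0.252 for the gCUX1 pair and 0.368 for the gHPRT pair in the plateau. Pairs of gCUX1 replicate 1 with a gHPRT library had 0.235 and 0.229, and pairs of gCUX1 replicate 2 with one had 0.376 and 0.387. The index is lower where one library covers less, as gCUX1 replicate 1 did. Of the plateau bases covered in gCUX1 replicate 1, 57.0% were also covered in gCUX1 replicate 2, 56.7% in gHPRT replicate 1 and 53.1% in gHPRT replicate 2. These shares lay within or just above those among the 3 other libraries, which ran between 52.1% and 56.9%. In the rest the index was 0.0702 for the gCUX1 pair, 0.0888 for the gHPRT pair and between 0.0616 and 0.122 across groups. Denser coverage alone raises this index and the shares under 3 or 4 libraries, so the 2 stretches are not comparable by either. In the plateau 101.6 kb were covered in both gCUX1 and no gHPRT library and 337.7 kb in both gHPRT and no gCUX1 library, and in the rest 123.5 and 108.5 kb. As shares of bases these were 1.54% and 5.12% of the plateau and 0.448% and 0.394% of the rest, against 1.45% and 3.80% of the genome. More bases exclusive to gHPRT than to gCUX1 were thus found over the genome as well as in the plateau.

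The groups were then set against each other to see how the mark on chromosome 22 differed after targeting of CUX1. Over the plateau, peaks covered 25.7% ± 10.7 in gCUX1 and 34.8% ± 1.60 in gHPRT libraries (SD, n = 2 each). Both gCUX1 libraries lay below both gHPRT libraries (two-sided exact permutation p = 0.333, the smallest that 2 against 2 allow), but gCUX1 replicate 2, with 33.2%, lay only just below gHPRT replicate 2, with 33.7%. Without gCUX1 replicate 1 the difference shrank to -1.57 points, against -9.11 points with it. With 1 limit on −log10 p for all lists the difference was -0.643 points, and with 1 limit on −log10 q it turned to 3.12 points. Over the genome, peaks covered 13.96% and 19.28% in gCUX1 replicates 1 and 2, against 22.84% and 22.37% in gHPRT replicates 1 and 2. Both gCUX1 libraries thus lay below both gHPRT libraries there as well, so this order was not particular to the plateau.

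In the rest, peaks covered 5.27% ± 0.152 in gCUX1 and 5.30% ± 1.04 in gHPRT libraries (SD, n = 2 each), and the groups overlapped (exact permutation p = 1). With the common limit on −log10 p, coverage of the rest was 5.38% and 3.29% in the gCUX1 libraries and 1.73% and 1.83% in the gHPRT libraries. The list of gCUX1 replicate 1 is left whole by that limit.

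The log2 ratio of plateau to rest, which compares stretches read from the same list, averaged 2.22 ± 0.66 in gCUX1 and 2.73 ± 0.22 in gHPRT libraries (SD, n = 2 each). The groups overlapped, with 1.76 and 2.69 in gCUX1 replicates 1 and 2 and 2.57 and 2.88 in gHPRT replicates 1 and 2 (exact permutation p = 0.667). Without gCUX1 replicate 1 the difference was -0.04, against -0.51 with it. With the common limit on −log10 p the ratio was 1.76 and 2.91 in the gCUX1 libraries and 3.66 and 3.61 in the gHPRT libraries, a difference of -1.30 with groups that did not overlap (exact permutation p = 0.333).

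The serial numbers, read as above to include peaks past the end of the lists, gave another order. The plateau held 165.0 and 141.4 numbers per Mb in gCUX1 replicates 1 and 2 and 138.5 and 132.9 in gHPRT replicates 1 and 2. The rest held 80.8 and 64.03 per Mb (gCUX1) and 113.003 and 68.9 per Mb (gHPRT). By this count gCUX1 replicate 1 was the densest library in the plateau, while by listed coverage it was the sparsest. It also had the highest number in its whole list, 448404, against 381380 in gCUX1 replicate 2 and 430436 and 386156 in gHPRT replicates 1 and 2. Set against these numbers, the whole lists held 55.8% and 65.6% (gCUX1) and 58.1% and 64.7% (gHPRT). Of the plateau numbers, the lists held 48.5% in gCUX1 replicate 1 and 78.7% in gCUX1 replicate 2, against 82.8% and 83.2% in gHPRT replicates 1 and 2. In the rest they held 56.8% and 57.8% (gCUX1) and 26.1% and 41.7% (gHPRT). The log2 ratio of plateau to rest by numbers was 1.03 and 1.14 in the gCUX1 libraries and 0.29 and 0.95 in the gHPRT libraries. The difference of 0.47 (exact permutation p = 0.333) was of the opposite sign to that by coverage. Numbers count peaks of any width and coverage counts bases, so the 2 measures are unlike.

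**Figure D4:**
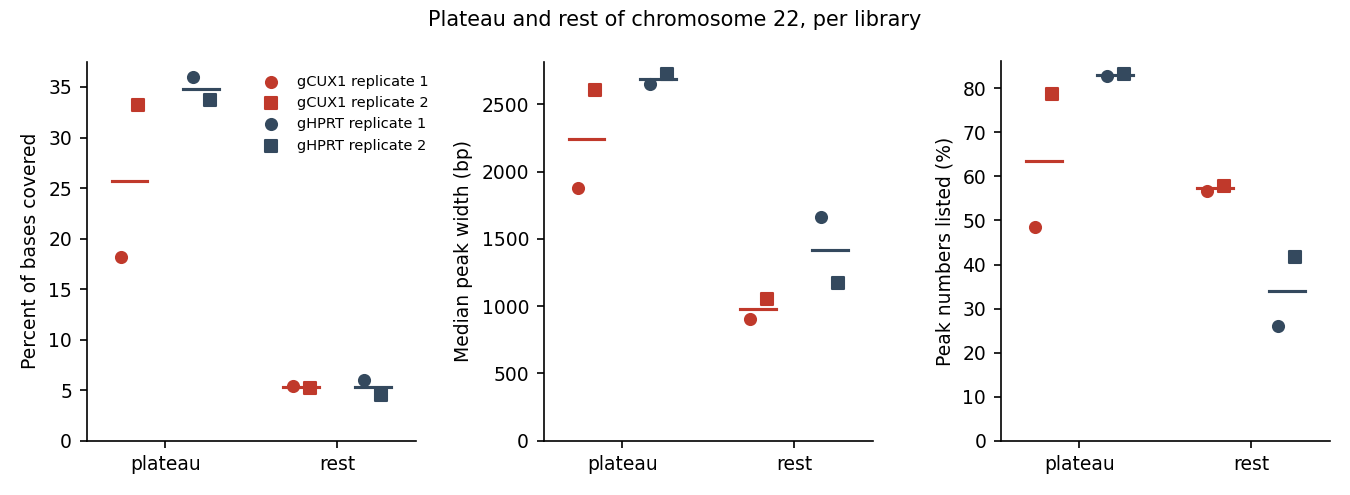
Percent of bases covered, median peak width in bp and the percent of peak numbers that are listed, in the plateau and the rest of chromosome 22; points are libraries (circles, replicate 1; squares, replicate 2) and lines are group means. In the plateau gCUX1 replicate 1 lies apart from the other 3 libraries in each panel, with 18.2% covered, 1880 bp and 48.5%.

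Plateau peaks had a median width of 2245 ± 516 bp in gCUX1 and 2692 ± 52.0 bp in gHPRT libraries (SD, n = 2 each; exact permutation p = 0.333). The smallest peak in a whole list was 263 and 339 bp wide in gCUX1 replicates 1 and 2 and 362 and 369 bp in gHPRT replicates 1 and 2, and so ordered the libraries as the plateau widths did. Divided by that smallest width, the median plateau width was 7.42 in gCUX1 and 7.36 in gHPRT libraries. The part of the smallest width in the result was not tested.

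Across the genome, the percent covered was tested in 27555 windows of 100 kb with limma. None of the 318 windows tested on chromosome 22 passed a Benjamini-Hochberg adjusted p of 0.05, against 0.116% of all windows. An unadjusted p under 0.05 was reached by 13 of the 318, against 4123 of all 27555. Of the 58 plateau windows tested, 4 had an unadjusted p under 0.05 and were lower in gCUX1, against 14.3% of all windows, and 0 were higher, against 0.704%. Of the 259 windows of the rest, 5 were lower and 4 higher at that level. Without gCUX1 replicate 2, limma called 20 windows on chromosome 22, or 6.25% of those tested there, against 8.39% of all windows. Of these 20, 19 lay among the 58 plateau windows (32.8%) and were lower in gCUX1. Without gHPRT replicate 2 it called 3 windows on chromosome 22 (0.952%), against 2.10% of all windows, and 0 in the plateau. Each of these fits leaves 1 library in a group, which is assumed to vary as the other group does.

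Both gCUX1 libraries lay below both gHPRT libraries in 22 of the 58 plateau windows, against 43.3% of all windows, and above both in 1, against 4.98%. In the rest they lay below in 35 of 259 windows and above in 43, so the share below was smaller and the share above larger than over the genome. The median difference was -10.6 points in the plateau and -0.01 in the rest, against -5.93 over all windows. When the libraries were scaled to the same genome-wide mean, the gCUX1 libraries lay below in 5 and above in 9 plateau windows, against 19.3% and 18.1% of all windows. In the rest they then lay below in 19 windows (7.34%) and above in 73 (28.2%). At an unadjusted p under 0.05, 1 plateau window was then lower and 1 higher, against 4.04% and 3.32% of all windows. Of the 259 windows of the rest, 2 were then lower and 9 higher at that level. With quantile normalization the counts were also 1 and 1 in the plateau, and 3 and 9 in the rest, against 4.44% and 3.55% of all windows. With the scaling to the same mean, the gCUX1 minus gHPRT differences moved as well. Their medians became -0.71 points in the plateau and 1.52 in the rest, against 0.10 over all windows.

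The chromosome 22 window with the smallest p ran from 22700001 to 22800000, in the plateau. It was covered to 15.7% and 26.8% in gCUX1 replicates 1 and 2 and to 55.0% and 51.6% in gHPRT replicates 1 and 2, a difference of -32.0 points (SE 9.44) that did not pass (limma, adjusted p = 0.0917). The groups did not overlap there, and the window ranked 209 by p among all 27555. The 4 next by p with lower coverage in gCUX1 lay in the rest, starting at 35100001, 33800001, 34600001 and 42600001. Their gCUX1 means were between 0.709% and 3.53% and their gHPRT means between 7.83% and 14.5% (limma, adjusted p from 0.125 to 0.245).

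The 5 windows with the smallest p among those higher in gCUX1 all lay in the rest. They began at 46000001, 26900001, 42800001, 37100001 and 32900001. The first of them had 14.6% and 6.49% in the gCUX1 libraries and 0% and 3.62% in the gHPRT libraries, a difference of 8.74 points (limma, adjusted p = 0.194). The one from 32900001 had 22.9% and 6.38% (gCUX1) against 4.57% and 7.38% (gHPRT), so it was high in gCUX1 replicate 1 alone.

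The plateau and the rest were also set against the other chromosomes within each library. The plateau's log2 percent covered, centred on the mean of the 42 parts, was 0.46 and 0.99 in gCUX1 replicates 1 and 2 and 0.77 and 0.76 in gHPRT replicates 1 and 2, a difference of -0.04 (SE 0.20, limma adjusted p = 0.984). The gCUX1 libraries lay on either side of the gHPRT libraries. The rest had -1.30 and -1.70 (gCUX1) and -1.81 and -2.12 (gHPRT), a difference of 0.47 (SE 0.19, limma adjusted p = 0.760), the highest of the 42 parts. In this fit 2.38% of parts passed, and neither stretch of chromosome 22 was among them. With the common limit on −log10 p the difference of the rest was 0.78 and passed (limma, adjusted p = 0.0263). In that fit 2 of 42 parts passed. The difference of the rest did not pass with the common limit on −log10 q (0.64, limma adjusted p = 0.0554). At equal covered length it was 0.76 and did not pass either (limma adjusted p = 0.0679). By serial numbers it was -0.24 (adjusted p = 0.367). Other parts of low coverage lay next to the rest, such as the low-coordinate side of chromosome 9 with 0.45 and chromosome 13 with 0.42. The high-coordinate side of chromosome X, also sparse, had the lowest difference of the 42 parts, -1.53. It was covered to 1.95% and 1.30% in the gCUX1 libraries and to 7.26% and 5.51% in the gHPRT libraries. Whether the difference of a part goes with its coverage was not tested.

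**Figure D5:**
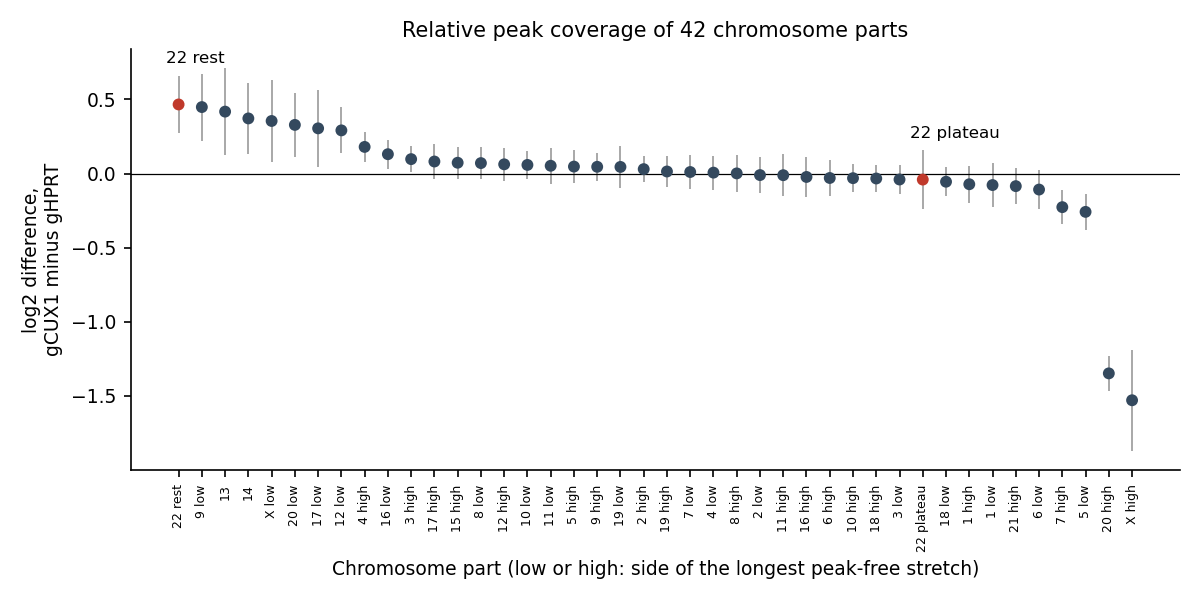
Difference in log2 percent covered between gCUX1 and gHPRT libraries (y axis; points, limma estimates; bars, SE), relative to all parts of the library, for 42 chromosome parts sorted by difference. The rest of chromosome 22 has the highest value, 0.47, and the plateau lies near 0, at -0.04; neither passed the adjusted threshold.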

How the data were processed

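The 4 K562 libraries were grouped by the guide named in their labels. The submitters' processing notes name MACS2 2.1.0, deepTools 3.5.1, BWA 0.7.17 and SAMtools 1.16.1, with hg19. No source used here gives tool settings, any background library or read depth, so intervals that need depth were not computed. Each library had 1 list of 250000 broad peaks from the authors, ordered by −log10 p. The deposited score of a peak was the whole part of 10 × −log10 p in all but 12 to 18 peaks a list. The authors' fold of a peak is a ratio over background, and their p and q are given as −log10 values. Lists ended at a −log10 p of 1.49 and 1.35 in gCUX1 replicates 1 and 2 and 1.25 and 1.27 in gHPRT replicates 1 and 2. Positions are counted from 1.

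Coverage was the percent of bases under a peak (Python 3.11.15). Peaks were put in a stretch by their centre. Group means were compared by exact permutation. Windows of 100 kb on chromosomes 1 to 22 and X with a mean of at least 1%, and log2 percent covered of chromosome parts, were tested with limma 3.58.1 (R 4.3.3, Benjamini-Hochberg). Parts were the sides of a peak-free stretch of at least 2 Mb, kept from 5 Mb, with chromosome 22 divided at the plateau end. On simulated data with the 27555 windows, changes of 40 points were recovered in 98% and of 20 points in 19% of cases, with 13 false calls. The changed windows were all more densely covered, by the mean of the libraries, than any window of the rest. Recovery in such sparse windows was not measured. Neighbouring windows are not independent.

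Alternatives were common limits on −log10 p or q, equal covered length, other window sizes, other scalings, the replicate block and leaving out each library. Landmark genes other than BCR were not placed on hg19. Named windows were the 5 per direction with the smallest p, those around BCR and the most and least covered. Named peaks were the widest and strongest in the plateau. The members, stretches and lists were chosen with earlier results of these data known. The genome-wide ranks, shared bases, serial numbers and peak-free stretches were examined after the values were seen.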

Additional observations from a re-analysis of the deposited data

How the results depend on the processing

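Depth is unknown and each list ends at a fixed number of peaks, so coverage depends on where a list stops. With a common limit on −log10 q, the group difference (gCUX1 minus gHPRT) in plateau coverage was 3.12 points, reversed from -9.11. In the rest it was 2.56 points with a common limit on −log10 p, 1.46 with one on −log10 q, 2.04 at equal covered length and 1.88e-06 with each library's own edge, against -0.03, and leaving out 1 library gave -0.768 to 0.705. Leaving out 1 library gave -16.7 to -1.57 points for plateau coverage. Plateau width divided by the smallest width differed by 0.0577, reversed. Peak numbers per Mb count peaks and not bases. By them the difference in the log2 ratio of plateau to rest was 0.47. That of the plateau among chromosome parts was 0.22 and that of the rest -0.24. All were of the opposite sign to those by coverage. Leaving out 1 library gave -0.31 to 0.23 for the plateau among parts. That of the rest passed with the limit on −log10 p (0.78), where 2 of 42 parts passed, and with the replicate block (0.47, limma adjusted p = 0.00768). Libraries share only a number (correlation of same-numbered deviations 0.0564 over windows), and the replicate block, like the 1-Mb windows, the quantile normalization and the lack of a minimum, left 0 windows called on chromosome 22. The block called 184 windows over the genome, against 32, and 6 of 42 parts, against 1. Calls there ranged from 0 to 20 when 1 library was left out, the 20 being 6.25% of windows against 8.39% over the genome (without gCUX1 replicate 2). The mean edge stayed between 77.4 and 114.9 kb past the BCR start over all 11 alternatives. Single libraries moved more. With a common limit on −log10 p or on −log10 q, the edge of gHPRT replicate 2 lay at 177.4 kb, past the end of the gene. That of gHPRT replicate 1 then lay at 77.4 kb. The cause of these changes was not tested.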
